A study of Mus musculus with 8 samples.

Results

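Genes of B cells and of their precursors were examined in RNA from the lumbar intervertebral discs of mice with proteoglycan-induced spondylitis and of naive mice. The 33 genes were listed by name, and each was measured by the probe sets whose annotation names it alone, 61 probe sets in all among 34945 for 18193 genes. Of the 33, 7 act in precursors (Vpreb1, Vpreb3, Igll1, Rag1, Rag2, Dntt and Ebf1) and 26 make up the rest. The immunized group holds 5 samples of female BALB/c mice that received cartilage proteoglycan (100 µg of protein) in an emulsion with 2 mg of DDA (dimethyldioctadecylammonium bromide), an adjuvant, given on days 0, 21 and 42. The naive group holds 3 samples of age-matched female BALB/c mice. No group with adjuvant alone is among these samples, so effects of the proteoglycan and of the adjuvant cannot be told apart. Each sample is RNA from 6 pooled discs (L1 to L6), and p-values measure the spread between these samples. The descriptions of immunized replicate 1 and naive replicate 3 each join 2 sample numbers.

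B cells form in bone marrow through stages set by the transcription factors E2A (Tcf3), Ebf1 and Pax5. At the pro-B stage the recombinase of Rag1 and Rag2 assembles the heavy chain gene, and the new chain is tested at the surface with a surrogate light chain made by Vpreb1 and Igll1. The chain signals through Cd79a and Cd79b, which stay with the antigen receptor in mature B cells. A disc has almost no blood vessels and few leukocytes of its own, whereas the adjoining vertebral bodies hold red marrow.

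Each value is a log2 expression set against that probe set's median over 8 arrays, so a difference of 1 is a 2-fold change and levels of separate genes cannot be compared. The disc label was set against cartilage and nucleus pulposus markers. A log2 signal of 8 or more on the lowest array was a class held by 31.6% of probe sets. A gene with several probe sets has more chances to have one in this class. Such a probe set was present for 10 of 10 chondrocyte and 5 of 6 nucleus pulposus markers. It was also present for 10 of 10 neutrophil precursor and 7 of 7 megakaryocyte markers. Naive replicate 1 stood apart from the other naive samples on the second principal component of all genes (32.14, against -7.53 and -7.07), which held 19.7% of the variance. In bulk RNA, fewer cells of a type and less RNA per cell cannot be told apart.

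Immunized discs had higher Btk and Ly86, both of which are also expressed by myeloid cells, and no B cell or precursor gene passed the test in the lower direction. Of the 33 genes, 2 rose and 0 fell at an adjusted p under 0.05 in limma, where 4.46% of all genes rose and 4.68% fell. At an unadjusted p under 0.05, 3 were higher and 5 lower, against 12.9% and 18.2% of all genes. The groups did not overlap for Btk, with immunized samples higher (1 gene), and for Cd79a, with immunized samples lower (1 gene), against 9.39% and 14.0% of all genes. These shares of the 33 genes (9.09%, 15.2%, 3.03% and 3.03%) were no larger than those of all genes, and that of rises (6.06%) was close to it. The median difference was -0.20 over the precursor genes and 0.087 over the other 26, against -0.035 over all genes.

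**Figure D1:**
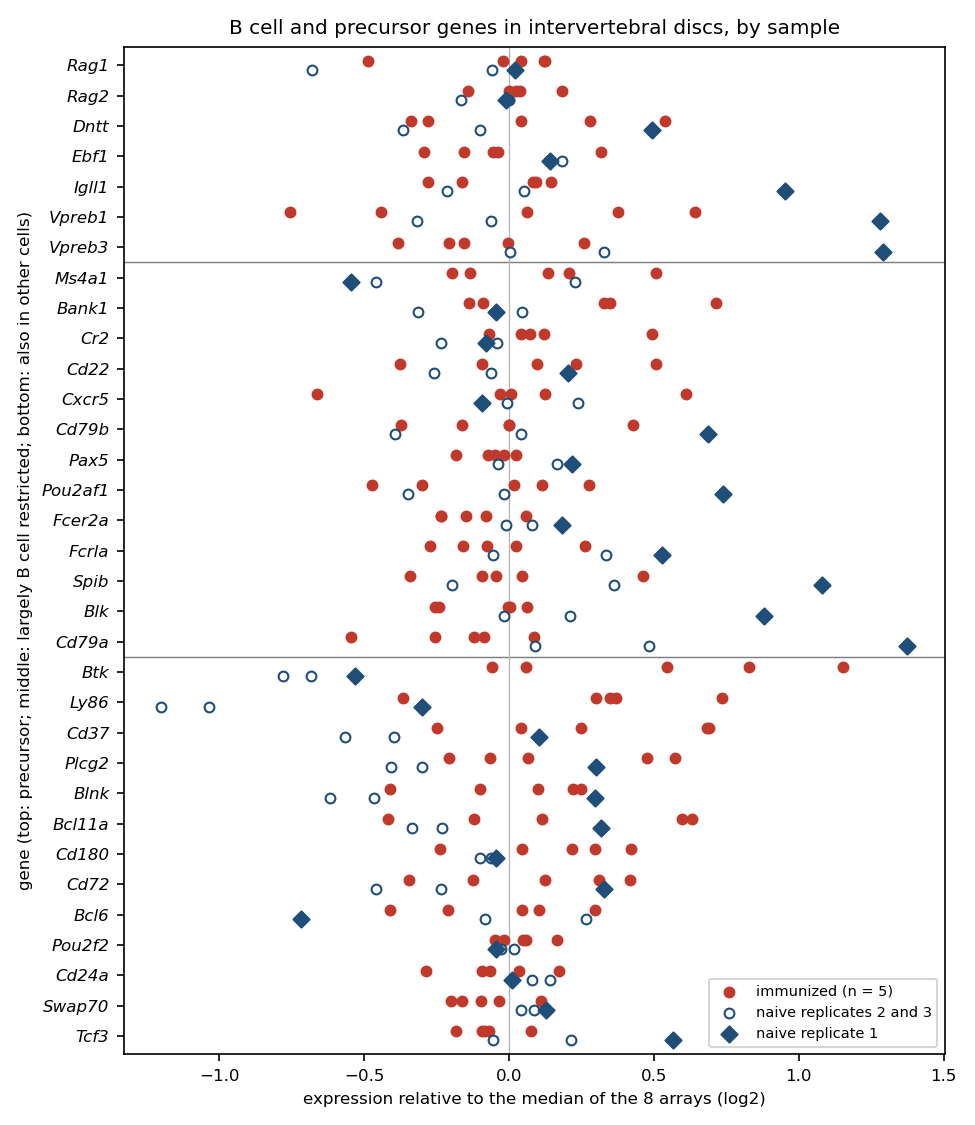
Relative log2 expression of each gene, with the median over 8 arrays at 0 (x axis), 1 row per gene, with 5 immunized samples as filled circles, naive replicate 1 as a diamond and naive replicates 2 and 3 as open circles. Naive replicate 1 was the highest of all samples for 14 of the 33 genes, among them Vpreb1, Vpreb3, Igll1 and Cd79a, and the lowest for Ms4a1 and Bcl6.

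Each surrogate light chain gene, by the mean of its probe sets, was highest in naive replicate 1, and its difference moved up without that sample. Vpreb1, the variable-like part of the surrogate light chain, had values of 0.38, -0.76, 0.06, -0.44 and 0.64 in immunized replicates 1 to 5, against 1.28, -0.06 and -0.32 in naive replicates 1 to 3. The single highest value was naive, and the remaining 7 samples of both groups overlapped. The difference was -0.32 ± 0.41 (SE, 95% interval -1.26 to 0.61, adjusted p = 0.63), and 0.17 ± 0.36 without naive replicate 1. Vpreb3, a related protein found with the antigen receptor chains inside precursor B cells, had -0.01, -0.21, 0.26, -0.38 and -0.16 in immunized samples, against 1.29, 0.01 and 0.33 in naive samples. Its difference of -0.64 ± 0.27 (interval -1.24 to -0.04) did not pass (adjusted p = 0.14), and was -0.26 ± 0.17 without naive replicate 1.

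Igll1, which encodes the lambda 5 chain that joins VpreB, was measured by 2 probe sets that disagreed. The probe set ending in _x_at had 0.02, -0.48, -0.02, -0.34 and 0.24 in immunized samples, against 1.93, 0.08 and -0.03 in naive samples. The other, ending in _at alone, ran from -0.22 to 0.27 in immunized samples, against -0.40 to 0.03 in naive samples, and showed no high value in naive replicate 1 (-0.03). Their differences were -0.78 ± 0.41 and 0.20 ± 0.14, and the mean of both gave -0.29 ± 0.24 (adjusted p = 0.44). The suffix _x_at marks probe sets that can bind related transcripts. The lowest array of the _x_at probe set had a log2 signal of 8 or more, against 4 to 8 for the other. A further probe set, which names both Vpreb1 and Vpreb2 and was therefore left out, had 0.06, -0.40, 0.02, -0.31 and 0.18 in immunized samples, against 0.87, -0.02 and -0.08 in naive samples. It too was highest in naive replicate 1.

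The promoters of the 3 surrogate light chain genes and of Cd79a are shown because all 4 genes were highest in naive replicate 1. Each is the 250 bases before a RefSeq start (build GRCm38.p6), the first listed where a gene has several. Capitals mark the E-box CAGGTG, or CACCTG on the other strand, and the octamer ATGCAAAT, or ATTTGCAT on the other strand. The E-box is bound by E2A and the octamer by Oct factors together with the product of Pou2af1. The positions are chr16:16869256-16869505 on the minus strand for Vpreb1, chr16:16863986-16864235 on the minus strand for Igll1, chr10:75948050-75948299 on the plus strand for Vpreb3 and chr7:24897247-24897496 on the plus strand for Cd79a. The Vpreb3 window lies inside the RefSeq span of that gene (chr10:75943024-75949657).
Vpreb1: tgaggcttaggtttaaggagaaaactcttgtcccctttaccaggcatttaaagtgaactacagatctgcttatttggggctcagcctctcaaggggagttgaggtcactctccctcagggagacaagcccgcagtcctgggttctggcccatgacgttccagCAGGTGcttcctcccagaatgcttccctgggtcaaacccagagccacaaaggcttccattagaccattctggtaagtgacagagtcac
Igll1: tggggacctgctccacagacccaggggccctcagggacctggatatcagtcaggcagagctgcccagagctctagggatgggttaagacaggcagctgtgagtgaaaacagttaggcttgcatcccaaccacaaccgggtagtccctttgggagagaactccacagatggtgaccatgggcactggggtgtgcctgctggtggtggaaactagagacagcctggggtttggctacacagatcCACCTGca
Vpreb3: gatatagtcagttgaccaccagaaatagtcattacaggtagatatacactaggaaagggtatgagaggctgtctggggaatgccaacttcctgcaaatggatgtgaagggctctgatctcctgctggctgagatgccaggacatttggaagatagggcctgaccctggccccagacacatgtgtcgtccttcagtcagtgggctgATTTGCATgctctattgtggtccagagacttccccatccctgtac
Cd79a: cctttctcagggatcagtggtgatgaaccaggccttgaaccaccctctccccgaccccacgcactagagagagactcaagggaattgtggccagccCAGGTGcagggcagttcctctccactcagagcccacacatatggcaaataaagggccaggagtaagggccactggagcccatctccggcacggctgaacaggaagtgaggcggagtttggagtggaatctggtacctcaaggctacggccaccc
Vpreb1, Igll1 and Cd79a each held 1 E-box, which began at -88, -8 and -154 from the start, and Vpreb3 held 1 octamer at -45. Of the 33 genes, 28 had an entry in the promoter table, and 4 had several, of which the first was used. The E-box letters were found in 11 of these 28 windows (39.3%), against 17.1% of 27025 promoters of the same length, and the octamer in 2 (7.14%, against 1.61%). The core CCCNNGGG of the Ebf1 site was in 4 (14.3%, against 11.7%) and the letters GAGGAA or TTCCTC of the PU.1 core in 9 (32.1%, against 23.1%). A match of letters is a description of the window only.

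Naive replicate 1 was not the highest of the 8 samples for any of the 3 recombination genes, although it was second for Dntt. Rag1 had 0.04, -0.02, 0.12, -0.49 and 0.12 in immunized samples, against 0.02, -0.68 and -0.06 in naive samples. Rag2 ran from -0.14 to 0.18 in immunized samples, against -0.17 to -0.0013 in naive samples. Dntt, the polymerase that adds untemplated bases at the joins, had 0.28, -0.34, 0.04, -0.28 and 0.54 in immunized samples, against 0.49, -0.10 and -0.37 in naive samples. The groups overlapped for all 3 genes. Their differences were 0.20 ± 0.19 for Rag1, 0.080 ± 0.089 for Rag2 and 0.040 ± 0.24 for Dntt, with adjusted p from 0.52 to 0.93. The mean of the 3 genes was 0.17, -0.32 and -0.14 in naive replicates 1 to 3, and that of the surrogate light chain genes 1.17, -0.0017 and -0.07, so naive replicate 1 was the highest naive sample for both. One Dntt probe set was highest of all samples in naive replicate 1 (0.66, against 0.53 in immunized replicate 5). None of the 3 recombination genes had a probe set with a lowest array of 8 or more, and each of the 3 surrogate light chain genes had one.

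Ebf1, which opens the B cell programme and is also expressed in adipocytes and other mesenchymal cells, differed from both patterns. Its values were -0.06, -0.16, -0.29, 0.32 and -0.04 in immunized samples, against 0.14, 0.18 and 0.14 in naive samples. Only immunized replicate 4 lay above the naive samples, which were close to each other (SD 0.02). The difference was -0.20 ± 0.13 (interval -0.49 to 0.09, adjusted p = 0.31), and all 5 probe sets lay between -0.27 and -0.14.

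**Figure D2:**
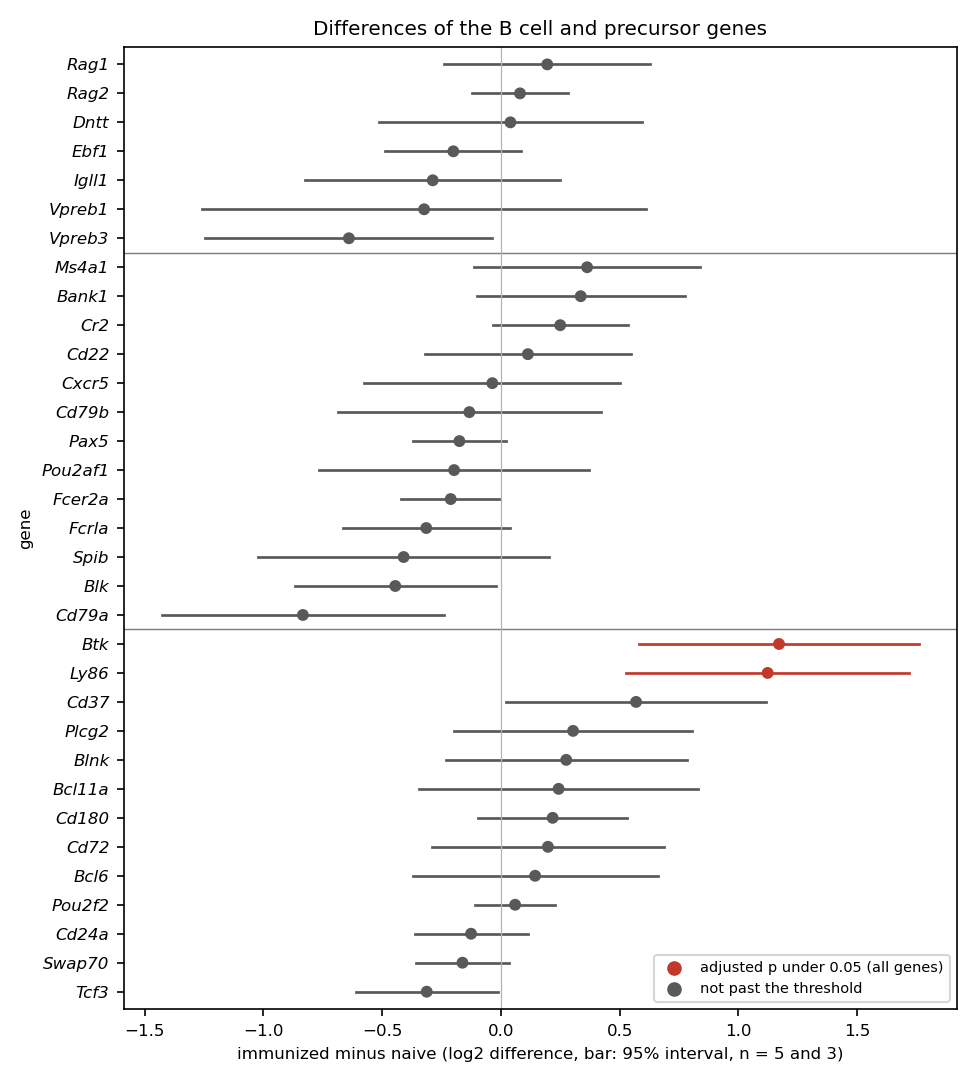
Log2 difference, immunized minus naive, of each gene (x axis) with its 95% interval from limma, for 5 immunized and 3 naive samples; genes past the threshold are in red. Btk and Ly86 passed, and the intervals of Vpreb1 (-1.26 to 0.61) and Vpreb3 (-1.24 to -0.04) were among the wide ones.

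Of the genes largely restricted to B cells, limma called 0 of 13 (0 higher and 3 lower without adjustment), where 4.46% of all genes rose and 4.68% fell, so a count of 0 does not set them apart. They had 9 negative and 4 positive differences and a median of -0.17, and 43.9% of all genes had a positive difference. Cd79a, the Ig-alpha chain of the antigen receptor, had -0.12, -0.26, 0.09, -0.55 and -0.09 in immunized samples, against 1.38, 0.09 and 0.48 in naive samples. All immunized values lay below the naive ones, but immunized replicate 3 (0.0860) and naive replicate 2 (0.0903) nearly met. The difference was -0.83 ± 0.26 (interval -1.43 to -0.24, adjusted p = 0.074), or -0.47 ± 0.18 without naive replicate 1 (adjusted p = 0.15). Cd79b, its Ig-beta partner, had -0.001, -0.16, 0.43, -0.37 and 0.001 in immunized samples, against 0.69, -0.39 and 0.04 in naive samples. Naive replicates 1 and 2 bounded all other samples, and the difference was -0.13 ± 0.24 (adjusted p = 0.74).

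Several regulators and receptor-proximal genes were, like Cd79a, highest in naive replicate 1. Blk, a Src family kinase of B cells, had 0.06, -0.24, -0.0025, -0.26 and 0.0025 in immunized samples, against 0.88, -0.02 and 0.21 in naive samples. Spib, an Ets transcription factor of B cells and plasmacytoid dendritic cells, had 0.05, -0.05, 0.46, -0.34 and -0.09 in immunized samples, against 1.08, -0.20 and 0.36 in naive samples. Pou2af1, the B cell coactivator of Oct factors, ran from -0.47 to 0.28 in immunized samples, against 0.74, -0.35 and -0.02 in naive samples. In each, naive replicate 2 lay within the immunized range. The differences were -0.44 ± 0.19 for Blk (adjusted p = 0.14), -0.41 ± 0.27 for Spib (0.33) and -0.20 ± 0.25 for Pou2af1 (0.63). Fcrla, an Fc receptor-like protein kept inside B cells, differed by -0.31 ± 0.16, the low affinity IgE receptor Fcer2a (CD23) by -0.21 ± 0.09 and the lineage factor Pax5 by -0.17 ± 0.09. The adjusted p of these 3 lay between 0.15 and 0.20, and naive replicate 1 was the highest sample in each by the mean of the probe sets. By 1 probe set of each gene, another sample was highest. These were naive replicate 3 for Fcrla (0.26, against -0.08 in naive replicate 1) and Pax5 (0.25, against 0.09), and immunized replicate 3 for Fcer2a (0.10, against 0.04).

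Ms4a1, which encodes CD20 and appears later in B cell development than Cd79a, ran the other way in naive replicate 1. Its values were 0.21, 0.13, 0.51, -0.20 and -0.13 in immunized samples, against -0.54, -0.46 and 0.23 in naive samples. Naive replicate 1, the highest sample for Cd79a, was the lowest for Ms4a1, by both of its probe sets. The difference was 0.36 ± 0.21 (adjusted p = 0.27). Positive differences were also measured for Bank1, a B cell scaffold protein (0.34 ± 0.19), the complement receptor Cr2 (0.25 ± 0.13) and the inhibitory lectin Cd22 (0.11 ± 0.19). Cxcr5, the receptor that guides B cells to follicles, differed by -0.04 ± 0.24, and immunized replicates 2 (-0.66) and 3 (0.61) were its lowest and highest samples. None of these 4 passed (adjusted p from 0.21 to 0.93).

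The genes of B cells that are also well known from myeloid or other cells had 10 positive and 3 negative differences and a median of 0.22, and both rises were among these 13. Btk, the kinase that carries the antigen receptor signal and is also active in myeloid cells, had 0.54, 0.06, 1.15, -0.06 and 0.83 in immunized samples, against -0.53, -0.78 and -0.68 in naive samples. The groups did not overlap, and immunized replicates 2 and 4 were nearest to the naive samples. Btk rose by 1.17 ± 0.26 (2.25-fold, adjusted p = 0.033). Ly86, or MD-1, the secreted partner of the receptor Cd180, had 0.30, -0.36, 0.37, 0.73 and 0.35 in immunized samples, against -0.30, -1.03 and -1.20 in naive samples. Immunized replicate 2 lay just below naive replicate 1, and all other immunized samples lay above the naive ones. Ly86 rose by 1.12 ± 0.26 (2.18-fold, adjusted p = 0.037).

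Both calls depended on single samples. With 1 sample left out at a time, Btk passed in 3 of 8 fits (without immunized replicate 2, 3 or 4; difference 1.01 to 1.31, adjusted p 0.015 to 0.10) and Ly86 in 2 of 8 (without immunized replicate 2 or naive replicate 1; 0.95 to 1.40, adjusted p 0.0090 to 0.11). Macrophage markers were also higher in the immunized group. Of 10, 5 rose, where 4.46% of all genes rose. This count was 0 without naive replicate 2 or 3, 1 without immunized replicate 1 and 3 without naive replicate 1. Without any other single sample it was 4 or 5. The mean of the 10 markers was 0.66, 0.01, 0.15, 0.78 and 0.15 in immunized samples, against -0.37, -0.83 and -0.91 in naive samples. Within the immunized group it was highest in replicate 4, where Ly86 was also highest but Btk was lowest. The mean of 6 neutrophil markers was 0.25, -0.15, 0.63, 0.08 and 0.70 in immunized samples, against -0.12, -0.65 and -0.74 in naive samples. The part of macrophages or neutrophils in the rise of Btk and Ly86 was not tested, and since values are relative to a median, no marker can be read as absent.

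Cd180 itself, a Toll-like receptor homologue of B cells and myeloid cells, differed by 0.22 ± 0.14 (adjusted p = 0.32), with immunized replicate 2 (-0.24) below all naive samples (-0.10 to -0.05). Cd37, a tetraspanin of leukocytes, had 0.25, -0.25, 0.69, 0.04 and 0.69 in immunized samples, against 0.11, -0.56 and -0.40 in naive samples. Its difference of 0.57 ± 0.24 did not pass (adjusted p = 0.15), and its probe sets gave 0.87 ± 0.25 and 0.27 ± 0.28. The adaptor Blnk (0.28 ± 0.22), the phospholipase Plcg2 (0.30 ± 0.22), the transcription factor Bcl11a (0.24 ± 0.26) and the inhibitory receptor Cd72 (0.20 ± 0.22) shared a pattern in the naive group. In all 4, naive replicate 1 (0.30 to 0.33) was above naive replicates 2 and 3 (-0.62 to -0.23). Arrays were also weighted by their fit, with the lowest weight in naive replicate 1 (0.273) and the highest in immunized replicate 1 (3.985). The other immunized samples had weights of 0.615 to 0.899. In limma with these weights, Cd37 (0.73 ± 0.16, adjusted p = 0.011), Blnk (0.63 ± 0.15, 0.013) and Cd72 (0.53 ± 0.16, 0.033) passed as well. With naive replicate 1 left out instead, none of these 3 passed (adjusted p 0.125, 0.116 and 0.233).

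Tcf3, which encodes the E2A proteins of many cell types, had -0.09, -0.07, 0.08, -0.18 and -0.08 in immunized samples, against 0.57, -0.05 and 0.21 in naive samples. The difference was -0.31 ± 0.13 (adjusted p = 0.15), and naive replicate 2 lay within the immunized range. Bcl6, the repressor of germinal centre B cells and of other leukocytes, was lowest in naive replicate 1 (-0.72) and differed by 0.14 ± 0.23. Pou2f2 (Oct-2) differed by 0.06 ± 0.07 and the signalling protein Swap70 by -0.16 ± 0.09. Cd24a, a surface protein of precursor B cells and also of nucleus pulposus and red cell precursors, differed by -0.13 ± 0.11. The adjusted p of these 4 lay between 0.23 and 0.70.

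**Figure D3:**
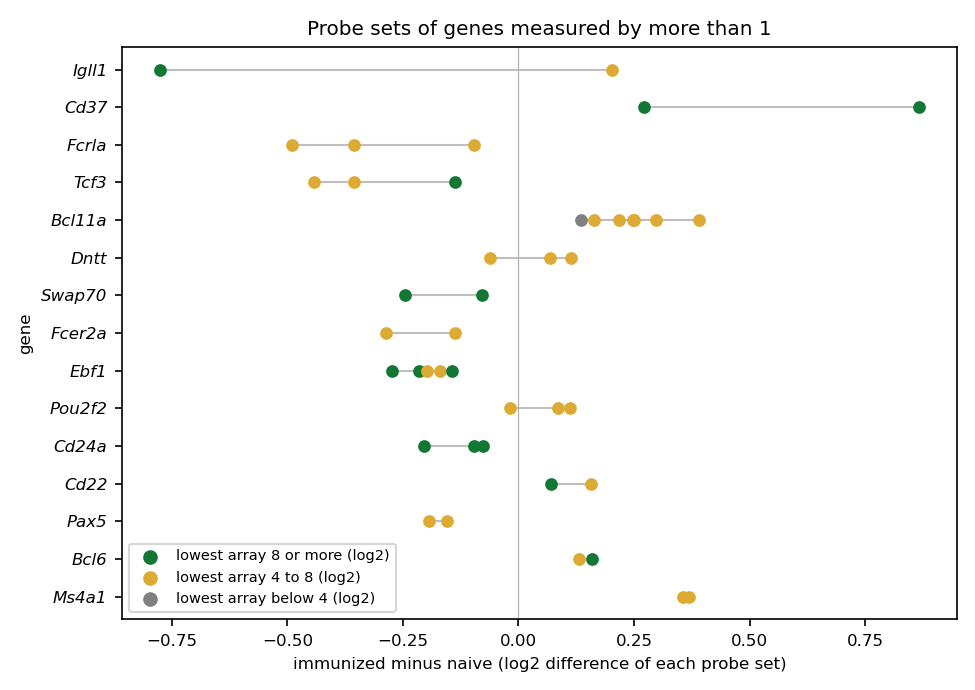
Log2 difference, immunized minus naive, of each probe set (x axis) for the 15 genes with more than 1, coloured by the signal class of its lowest array. Igll1 (-0.78 and 0.20) and Cd37 (0.27 and 0.87) had the widest gaps, and the probe sets of Ms4a1 (0.36 and 0.37) the narrowest.

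Naive replicate 1 was the highest of the 8 samples for 14 of the 33 genes (42.4%), against 24% of all genes; this count was chosen after the values were seen. It was 3 of 7 precursor genes, 8 of 13 genes largely restricted to B cells and 3 of 13 of the others. Without this sample the median difference was 0.10 over the precursor genes and 0.13 over the other 26; with all samples the medians were -0.20 and 0.087. The sign of the difference turned for Vpreb1, Igll1, Cd79b, Pou2af1 and Bcl6. The precursor median was also positive with arrays weighted (0.12) and without probe sets ending in _x_at or _s_at (0.025). In the latter fit Igll1 rested on its lower-signal probe set alone (0.20). The precursor median stayed negative after quantile normalization (-0.17) and with arrays centred on their medians (-0.18).

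**Figure D4:**
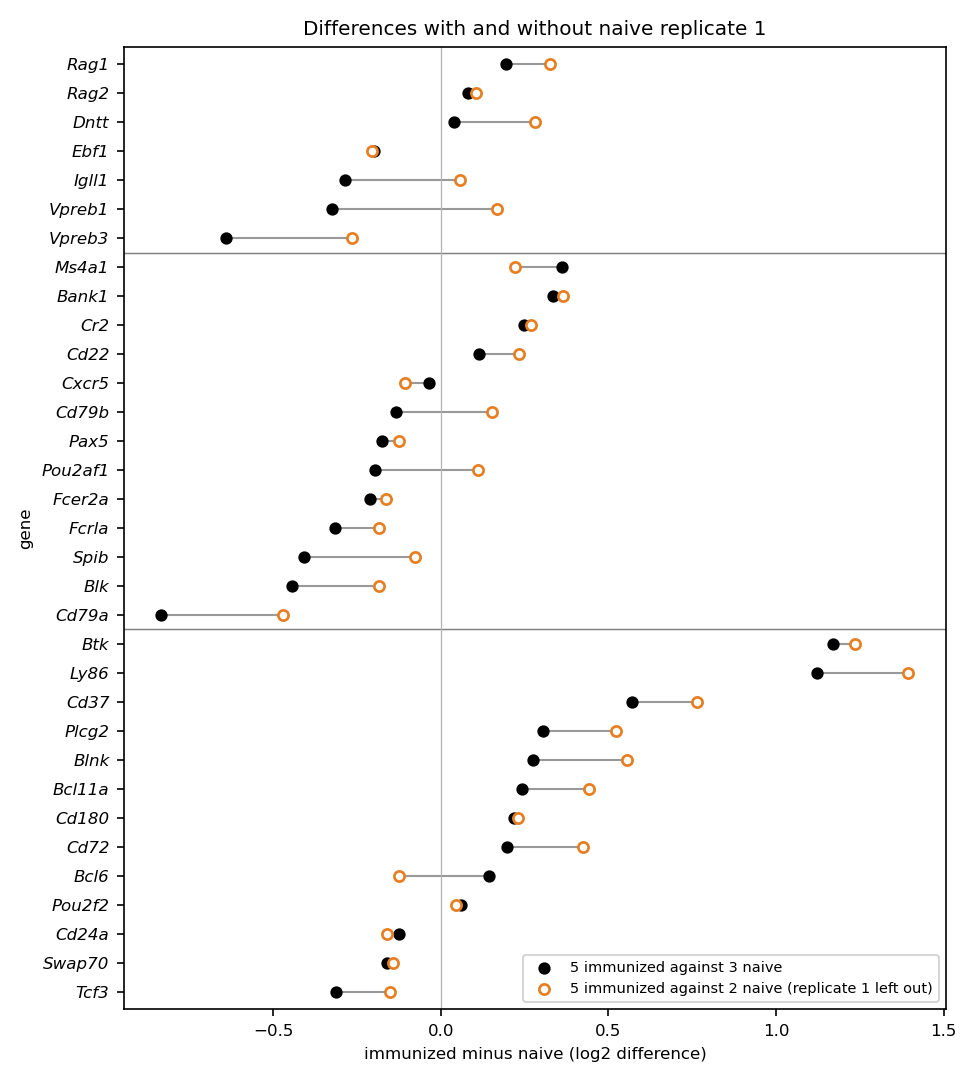
Log2 difference, immunized minus naive, of each gene (x axis) over all samples (black) and with naive replicate 1 left out (open orange). The differences of Vpreb1 (-0.32 and 0.17), Vpreb3 (-0.64 and -0.26) and Cd79a (-0.83 and -0.47) moved up without it, and Ebf1 (-0.20 and -0.21) hardly moved.

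Markers of other marrow cells, and cell cycle genes, were also higher in naive replicate 1 than in the other naive samples. The megakaryocyte mean was 0.38 there, against -0.33 and -0.25, the erythroid mean 0.24, against -0.34 and -0.12, the neutrophil precursor mean 0.02, against -0.58 and -0.80, and the cell cycle mean 0.16, against -0.43 and -0.36. In immunized replicates 3 and 5 the megakaryocyte means were 0.99 and 0.72 and the surrogate light chain means 0.13 and 0.19. Immunized replicate 1 had a megakaryocyte mean of 0.20 and an erythroid mean of 0.20, the latter also 0.20 in immunized replicate 5. Its neutrophil precursor mean (0.17) and cell cycle mean (0.25) were above those of naive replicate 1. The part of marrow cells in these values was not tested. Among these lists, only the megakaryocyte mean had naive replicate 1 and immunized replicates 3 and 5 as its 3 highest samples. Leaving out these 3 samples together was chosen after seeing the data. Limma then called 0 of the 33 genes, where 173 of all 18193 genes rose and 45 fell. Without adjustment, 6 of the 33 were higher and 3 lower at 0.05. The median differences were -0.018 over the precursor genes and 0.046 over the other 26.

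**Figure D5:**
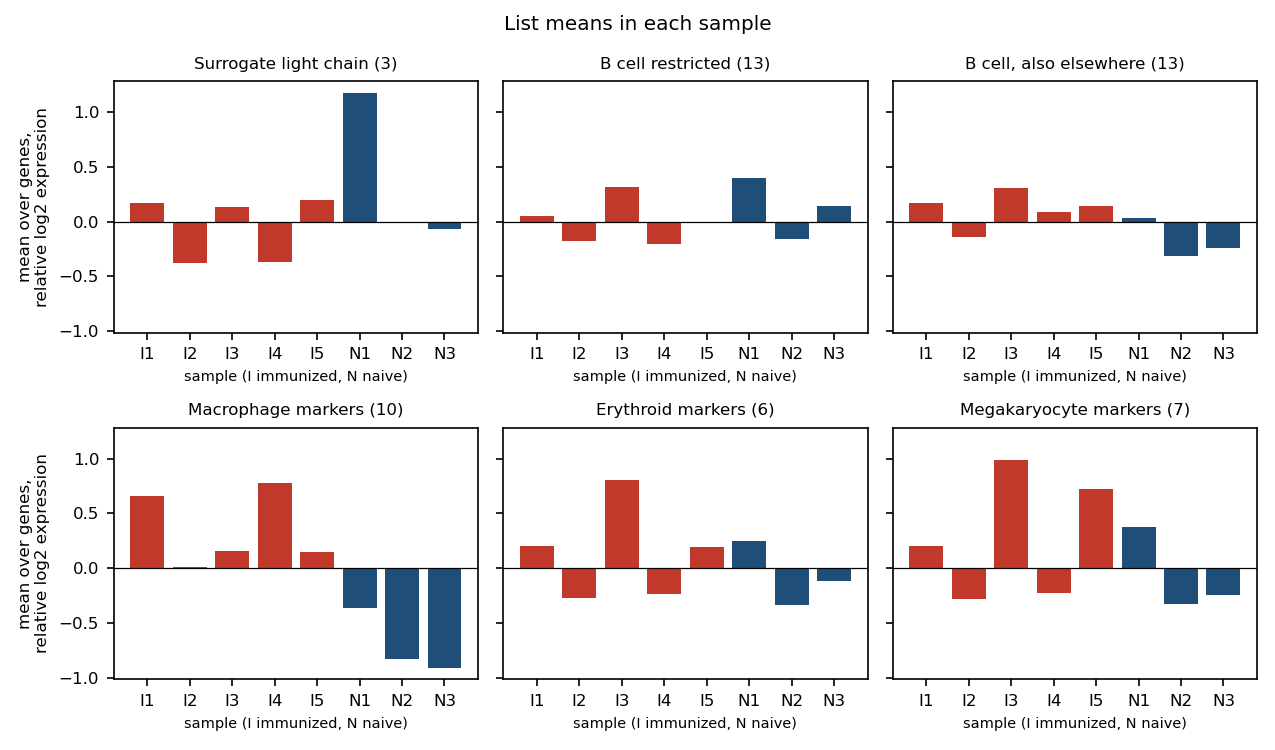
Mean relative log2 expression over the genes of 6 lists (y axis) in each sample, immunized in red and naive in blue, with the number of genes in parentheses. The surrogate light chain mean peaks in naive replicate 1 (1.17), the megakaryocyte mean in immunized replicate 3 (0.99), and the macrophage mean lies between 0.01 and 0.78 in immunized samples, against -0.91 to -0.37 in naive samples.

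Among 66 other genes of B cell development and signalling, 10 rose and 1 fell, where 4.46% of all genes rose and 4.68% fell. The lists behind these counts were chosen with earlier results known and nothing particular to them is read from the counts. Of 19 genes of antigen receptor signalling, 4 rose and 1 fell. These were the inhibitory IgG receptor Fcgr2b (1.12 ± 0.14), the phosphatase Ptpn6 (0.91 ± 0.23), Bcl10 (0.34 ± 0.09) and Malt1 (0.55 ± 0.14, named after its value was seen), which link the receptor to NF-kB, and the coreceptor Cd81, which fell (-0.47 ± 0.12). Most of these genes act in myeloid cells as well. Of 21 early lymphoid factors and receptors, 3 rose: the ectoenzyme Bst1 (1.49 ± 0.19), known from marrow stroma, myeloid cells and B cell precursors, the sialoglycoprotein Spn (CD43, 0.80 ± 0.21) and the transcription factor Erg (0.33 ± 0.07).

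Of 7 factors of the marrow niche of B cell precursors, Kitl, the stem cell factor (0.59 ± 0.13), and the adhesion molecule Vcam1 (0.85 ± 0.17) rose. Of 13 genes of mature B cell surface and homing, Tnfsf13b, the B cell survival factor BAFF, rose (0.71 ± 0.15), and of 6 end joining genes limma called 0 (0 also without adjustment), with Lig4 at 0.28 ± 0.14. Leaving out 1 sample at a time, Fcgr2b and Bst1 passed in 7 of 8 fits, the exception being the fit without naive replicate 2, in which limma called 0 of the 66. The number of rises was 2, 20, 5, 5 and 2 without immunized replicates 1 to 5, and 3, 0 and 2 without naive replicates 1 to 3.

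Of all genes 4.46% rose and 4.68% fell, so a count of 1 in a marker list does not set that list apart. Of 10 plasma cell markers 3 rose: Jchain, which joins secreted IgM and IgA, the transcription factor Xbp1 (0.26 ± 0.07) and Edem1, of protein quality control (0.54 ± 0.13), all named after their values were seen. Jchain had -0.20, 0.28, 0.36, 0.20 and 0.65 in immunized samples, against -1.99, -3.07 and -3.13 in naive samples, a difference of 2.99 ± 0.27. This was the largest difference of the list. The groups did not overlap for these 3 markers, with immunized samples higher, against 9.39% of all genes. Among the other markers, Prdm1 differed by 0.68 ± 0.29, Derl3 by 0.32 ± 0.10, Fkbp11 by 0.05 ± 0.08 and Mzb1 by 0.01 ± 0.30. Sdc1 differed by -0.09 ± 0.23, Tnfrsf17 by -0.14 ± 0.09 and Txndc5 by -0.34 ± 0.13. None of these other markers passed. Of 11 T cell markers 1 rose, and of 7 plasmacytoid dendritic cell markers 1, Bst2 (0.84 ± 0.17), which also responds to interferon. The other plasmacytoid dendritic cell markers did not pass. They ran from -0.44 ± 0.21 (Pacsin1) to 0.40 ± 0.16 (Klk1), with Siglech at -0.02 ± 0.15. Of 10 chondrocyte markers 4 fell and of 6 nucleus pulposus markers 1, while 3 of 6 neutrophil markers and 1 of 15 cell cycle genes rose. With 1 sample left out at a time these counts ranged from 1 to 4 (plasma cell), 0 to 3 (T cell), 0 to 1 (plasmacytoid dendritic cell), 0 to 8 (chondrocyte), 0 to 5 (nucleus pulposus), 0 to 5 (neutrophil) and 0 to 3 (cell cycle). The chondrocyte count was 8, the nucleus pulposus count 5 and the neutrophil count 5 without immunized replicate 2, and all 3 were 0 without immunized replicate 1 or naive replicate 2 or 3.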

How the data were processed

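Total RNA of 8 samples (5 immunized, 3 naive) was hybridized to Affymetrix arrays after labelling from 2 to 5 µg, per the labels' protocols. The authors deposited log2 values. Per the submitters' processing notes these come from RMA, a method that corrects background, equalises the arrays' distributions and summarises the probes of a set. Each probe set's median over the arrays is 0 within 5e-07, so the deposited log2 values are relative to it and absolute level is lost; the binary spacing of the printed values still gives a class (below 4, 4 to 8, 8 or more) for the lowest array. Precision is limited by how few arrays there are.

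Probe sets took gene names from the platform annotation and the RefSeq table of assembly GRCm38.p6. Each of 18193 genes was the mean of the probe sets that name it alone. Limma 3.58.1 (R 4.3.3; lmFit, eBayes, two-sided, no covariate) compared the groups, with Benjamini-Hochberg adjustment over all genes, a threshold of 0.05 and 95% intervals; it was tested on simulated data. The 33 genes, their split by cell restriction (textbook knowledge), 5 lists of related genes and 11 of cell markers were chosen with earlier results of these data known. All 33 genes are named; of each related list, the genes past the threshold, at most 4, or the largest moderated t. Other settings, with each sample left out in turn, are given in the closing section. Replicate numbers did not pair the samples.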

Additional observations from a re-analysis of the deposited data

Results flagged for a closer look

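In Rag1, immunized replicate 4 (-0.4859) lay far below the other immunized samples (-0.02 to 0.12), with a gap that took 0.761 of the group's range. Dixon's test was applied to 37 sets of immunized values, and chance flags about 1 in 20 such sets. Naive replicate 2 was lower still (-0.68). The Rag1 difference was 0.31 ± 0.17 without immunized replicate 4 (limma, adjusted p = 0.257), against 0.20 ± 0.19 with all samples.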

How the results depend on the processing

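Of the 33 genes, 2 rose with all samples. The count was 1 after quantile normalization (Ly86 lost at an adjusted p of 0.085), 5 with array weights, and 0 with the replicate number as a block, without both samples with joined numbers, and without naive replicate 1 and immunized replicates 3 and 5 (4, 3 and 6 higher in limma at an unadjusted p under 0.05). Leaving out 1 sample at a time gave 0 to 2. The cause was not tested, beyond the smaller number of samples where some were left out. Quantile normalization was run on the relative values. It therefore gave the same spread to arrays whose SD ran from 0.21 (immunized replicates 1 and 2) to 0.41 (naive replicate 1). No gene fell with all samples or under these settings, but 1, Cd79a, was lower at an adjusted p under 0.1 and 5 at an unadjusted p under 0.05. The median difference of the precursor genes was 0.12 with array weights and ranged from -0.22 to 0.10 with 1 sample left out, against -0.20 with all samples. Same-numbered samples correlated by -0.047, 0.243 and -0.101 in their deviations from the group means, so the block pairs samples that share only a number. With it, Btk differed by 1.25 ± 0.21 (adjusted p = 0.097) and Ly86 by 0.95 ± 0.22 (0.12). Over all 18 other settings Btk passed in 10 and Ly86 in 8, with a positive difference in each. Over all genes, 812 rose and 851 fell with all samples, against 521 and 377 after quantile normalization, 2495 and 3405 with array weights, 6 and 1 with the block, 0 and 0 without the joined-number samples, 173 and 45 without the 3 samples, and from 17 and 4 (without naive replicate 2) to 1293 and 1710 (without immunized replicate 2) with 1 left out.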
